A study of Homo sapiens with 18 samples.

Results

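CTCFL, RBFOX3 and LINC01694 showed the largest differences downward in untreated U2OS cells overexpressing mutant DNMT3A, set against U2OS cells with an empty vector, and are described here with CTCF, the paralog of CTCFL. The first 3 were chosen by a contrast of untreated cells. Eligible genes averaged a log2 CPM of 1 or more over all 18 libraries, with an adjusted p under 0.05 and no overlap between replicates. Among these, the 3 had the largest negative log2 fold changes between untreated mutant and untreated empty-vector cells. CPM is the count per 1000000 counts of the library after scaling. CTCF was chosen as the paralog, whatever its values. These are 4 of the 25296 genes in the deposited table, and all 4 were among the 18226 genes abundant enough to be tested.

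U2OS is an established human osteosarcoma cell line. The study compared 3 overexpression lines made from it, of which EV carried the empty vector MigR1, WT carried wild-type DNMT3A and MUT carried a DNMT3A mutant. The mutation is R882C in the series text and R882H in the sample labels. Each line was profiled by RNA sequencing of total RNA without drug (called untreated in the sample labels and vehicle in the series text) and after 24 h with 10 µM cytarabine (Ara-C), with 6 groups of 3 biological replicates. The labels do not state whether a line was 1 clone or a pool, and each construct is present as 1 line, so construct and line cannot be told apart. P-values measure the spread between cultures of these lines.

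DNMT3A adds methyl groups to cytosines at CG positions, and mutations of the arginine named above recur in acute myeloid leukaemia. Dense methylation of a promoter is a common way in which germ-cell genes are kept silent in other tissues. CTCFL, also called BORIS, is such a gene: it is made in the testis and in some cancers, and its protein carries zinc fingers closely related to those of CTCF. CTCF is made in nearly all cells, binds the same DNA motif and, with the ring-shaped cohesin complex, anchors chromatin loops. RBFOX3, known as the neuronal marker NeuN, is an RNA-binding protein that regulates splicing, and LINC01694 is a long intergenic non-coding RNA. Cytarabine is an analogue of cytidine that stalls DNA replication once polymerases have incorporated it. DNA methylation was not measured in the data used here.

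In the coordinates of the deposited table (GRCh38/hg38), CTCFL lay at chr20:57495966-57525653 on the minus strand and RBFOX3 at chr17:79089345-79516149 on the minus strand. LINC01694 lay at chr21:45593654-45603057 on the plus strand and CTCF at chr16:67562407-67639186 on the plus strand. The table called LINC01694 a lincRNA and the other 3 protein-coding. No other gene of the table overlapped CTCFL, RBFOX3 or LINC01694. CTCF was overlapped only by the minus-strand lincRNA AC027682.4, which had between 0 and 3 counts in a library. No stretch of 50 bases was shared between the annotated transcripts of CTCFL and CTCF. The search was for exact matches on the transcript strand, and matches with mismatches or on the other strand were not examined. The share of 50-base stretches found in any other annotated gene was 0.0424% for CTCFL, 0.511% for RBFOX3, 2.02% for LINC01694 and 1.24% for CTCF.

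Because DNMT3A acts on CG positions, start-site sequences are shown with each CG in capitals, as reference sequence and not as a measured methylation state. They come from RefSeq (GRCh38.p14), run from 250 bases before to 50 bases after a start site, and are written 5′ to 3′ on the strand of the gene. Of the 4 genes, 3 matched the RefSeq table. Over 35116 such promoters of 300 bases the median number of CG was 14, and 96.0% held at least 1. The table gave 3 start sites for CTCFL and 12 for RBFOX3. All 3 of CTCFL are shown, with 2 of RBFOX3 and the 1 of CTCF. For RBFOX3 these are the sequence whose start site was nearest to the start of the deposited gene, and the sequence with the most CG. Their start sites lay 29 and 93012 bases from the start of the deposited gene.
CTCFL, minus strand, chr20:57525603-57525902: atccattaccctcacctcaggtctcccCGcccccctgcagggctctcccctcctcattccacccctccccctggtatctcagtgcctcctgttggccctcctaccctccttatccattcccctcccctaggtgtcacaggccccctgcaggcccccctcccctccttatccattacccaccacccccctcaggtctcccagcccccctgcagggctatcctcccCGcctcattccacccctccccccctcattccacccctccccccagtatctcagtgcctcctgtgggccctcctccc
CTCFL, minus strand, chr20:57525091-57525390: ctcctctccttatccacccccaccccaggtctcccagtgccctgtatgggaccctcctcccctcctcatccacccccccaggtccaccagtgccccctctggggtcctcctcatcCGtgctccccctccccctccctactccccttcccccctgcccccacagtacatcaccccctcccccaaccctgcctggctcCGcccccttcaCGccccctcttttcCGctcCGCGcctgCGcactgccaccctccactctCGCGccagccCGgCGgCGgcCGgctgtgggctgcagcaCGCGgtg
CTCFL, minus strand, chr20:57524648-57524947: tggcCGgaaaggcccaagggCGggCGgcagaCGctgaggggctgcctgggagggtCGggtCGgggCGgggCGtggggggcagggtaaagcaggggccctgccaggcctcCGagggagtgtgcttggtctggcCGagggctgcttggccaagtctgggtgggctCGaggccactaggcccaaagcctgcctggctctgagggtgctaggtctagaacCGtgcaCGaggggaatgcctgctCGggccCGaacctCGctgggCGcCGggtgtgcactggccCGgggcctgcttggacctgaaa
RBFOX3, minus strand, chr17:79516071-79516370: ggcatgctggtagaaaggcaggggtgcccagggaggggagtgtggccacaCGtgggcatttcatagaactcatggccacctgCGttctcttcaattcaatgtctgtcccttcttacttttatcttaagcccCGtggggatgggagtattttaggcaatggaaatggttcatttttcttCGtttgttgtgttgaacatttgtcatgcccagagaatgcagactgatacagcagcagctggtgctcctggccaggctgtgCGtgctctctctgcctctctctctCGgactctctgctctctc
RBFOX3, minus strand, chr17:79609112-79609411: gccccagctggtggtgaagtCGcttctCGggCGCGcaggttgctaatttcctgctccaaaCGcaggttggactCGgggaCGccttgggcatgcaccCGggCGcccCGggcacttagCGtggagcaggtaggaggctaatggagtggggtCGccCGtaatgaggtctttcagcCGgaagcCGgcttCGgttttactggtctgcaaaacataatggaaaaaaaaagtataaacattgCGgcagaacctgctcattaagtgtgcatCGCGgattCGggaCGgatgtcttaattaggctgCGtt
CTCF, plus strand, chr16:67562276-67562575: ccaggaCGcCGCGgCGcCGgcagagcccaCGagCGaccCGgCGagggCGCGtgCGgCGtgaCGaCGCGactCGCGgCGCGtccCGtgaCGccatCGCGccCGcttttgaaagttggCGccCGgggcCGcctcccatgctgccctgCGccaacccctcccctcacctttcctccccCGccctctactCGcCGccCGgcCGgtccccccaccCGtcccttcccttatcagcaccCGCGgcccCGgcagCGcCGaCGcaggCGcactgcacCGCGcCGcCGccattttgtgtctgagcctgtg

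The outermost CTCFL sequence, whose start site lay 1 base from the 5′ end of the deposited gene, held 2 CG. Of all promoters, 89.0% held at least as many. The other two CTCFL sequences held 15 and 19 CG, which 48.9% and 42.9% of promoters reached. The RBFOX3 sequence at the deposited start held 6 CG, and its 12 sequences ranged from 4 to 22. The CTCF sequence held 46 CG, a number that only 2.89% of promoters reached. The letters CCCTC, from which CTCF takes its name, occurred on either strand 13, 8 and 6 times in the CTCFL sequences in the order shown. They occurred 1 and 0 times in the RBFOX3 sequences in the order shown and 4 times in that of CTCF. Of all promoters, 71.2% held at least 1. A match of letters describes the sequence and is not a measured binding site.

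Library totals ran from 15.4 to 21.9 M counts. DNMT3A itself was measured at 26.2 to 27.5 CPM in untreated EV libraries, at 129.4 to 139.1 CPM in untreated WT and at 253.6 to 615 CPM in untreated MUT libraries, so the labels and the DNMT3A level matched in every library. Untreated MUT replicate 3 had the 253.6 CPM and stood apart from the rest of its group in DNMT3A. Fold changes of the 4 genes that rest on it are given with and without it. Over all tested genes, untreated MUT replicates 1 and 2 also differed more from each other than any 2 replicates of another group. After cytarabine, DNMT3A was at 45.5 to 49.6 CPM in EV, 166.4 to 182.1 in WT and 514.6 to 531.9 in MUT. Of 11 listed osteoblast-lineage genes, 9 were in the table. SPARC, RUNX2 and ALPL had group means of 888 to 1150 CPM, 36.0 to 49.8 CPM and 7.04 to 12.7 CPM. COL1A1 and MSX2 had 63.4 to 271 CPM and 6.5 to 11.6 CPM. COL1A2 and SPP1 were low, at 0.458 to 7.97 CPM and 0.495 to 1.05 CPM, and DLX5 stayed at or under 0.117 CPM. In treated WT against EV, COL1A1 was lower (log2 fold change -1.83) and COL1A2 higher (1.91). BGLAP, a marker of mature osteoblasts, stayed at or under 0.292 CPM. Markers of epithelial, blood and endothelial cells summed to 4.62 to 22.28 CPM per library.

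CTCFL was well detected in EV cells, several-fold lower in WT cells and under 1 CPM in MUT cells. Untreated EV libraries had 20.5, 20.9 and 19.5 CPM, untreated WT libraries 5.49, 5.24 and 5.17 CPM, and untreated MUT libraries 0.752, 0.440 and 0.343 CPM. The last 3 values rest on 15, 7 and 6 counts. The 3 lines did not overlap, and the order was EV above WT above MUT. These untreated values chose the gene, so they are given as a description: 20.3 ± 0.733 CPM (SD, n = 3) in EV, 5.30 ± 0.170 in WT and 0.512 ± 0.214 in MUT, with a log2 fold change of -5.26 (38.4-fold lower) between MUT and EV, -1.94 between WT and EV, and -3.33 between MUT and WT. Without untreated MUT replicate 3, the MUT values were -5.02 and -3.08, and without untreated MUT replicate 1, which had the most counts, they were -5.68 and -3.75. Of all tested genes, 9.88% were called higher and 10.0% lower in untreated MUT against EV. The corresponding shares were 4.30% and 7.36% between WT and EV, and 11.7% and 9.54% between MUT and WT.

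The libraries treated with cytarabine did not enter the contrast that chose the genes and gave a separate measurement of the same 3 lines. They did enter the abundance limit and the shared fit that gave the adjusted p. CTCFL was at 13.9, 15.6 and 14.4 CPM in treated EV libraries, at 3.29, 3.35 and 4.30 CPM in treated WT libraries and at 0.659, 0.239 and 0.741 CPM in treated MUT libraries. Again no library of one line reached the range of another. CTCFL was 26.1-fold lower in MUT than in EV (log2 fold change -4.71, SE 0.227), and edgeR's quasi-likelihood test gave an adjusted p of 2.0e-10. It was 4-fold lower in WT than in EV (log2 fold change -2.0, SE 0.178, adjusted p 2.4e-07), and 6.53-fold lower in MUT than in WT (-2.71, SE 0.246, adjusted p 3.1e-07). The background in these treated comparisons was 7.13% of genes called lower and 6.85% higher for MUT against EV, 9.12% lower and 7.41% higher between WT and EV, and 9.48% lower and 10.4% higher for MUT against WT. RNA of whole cultures cannot tell fewer CTCFL-expressing cells from less CTCFL RNA in each cell.

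**Figure D1:**
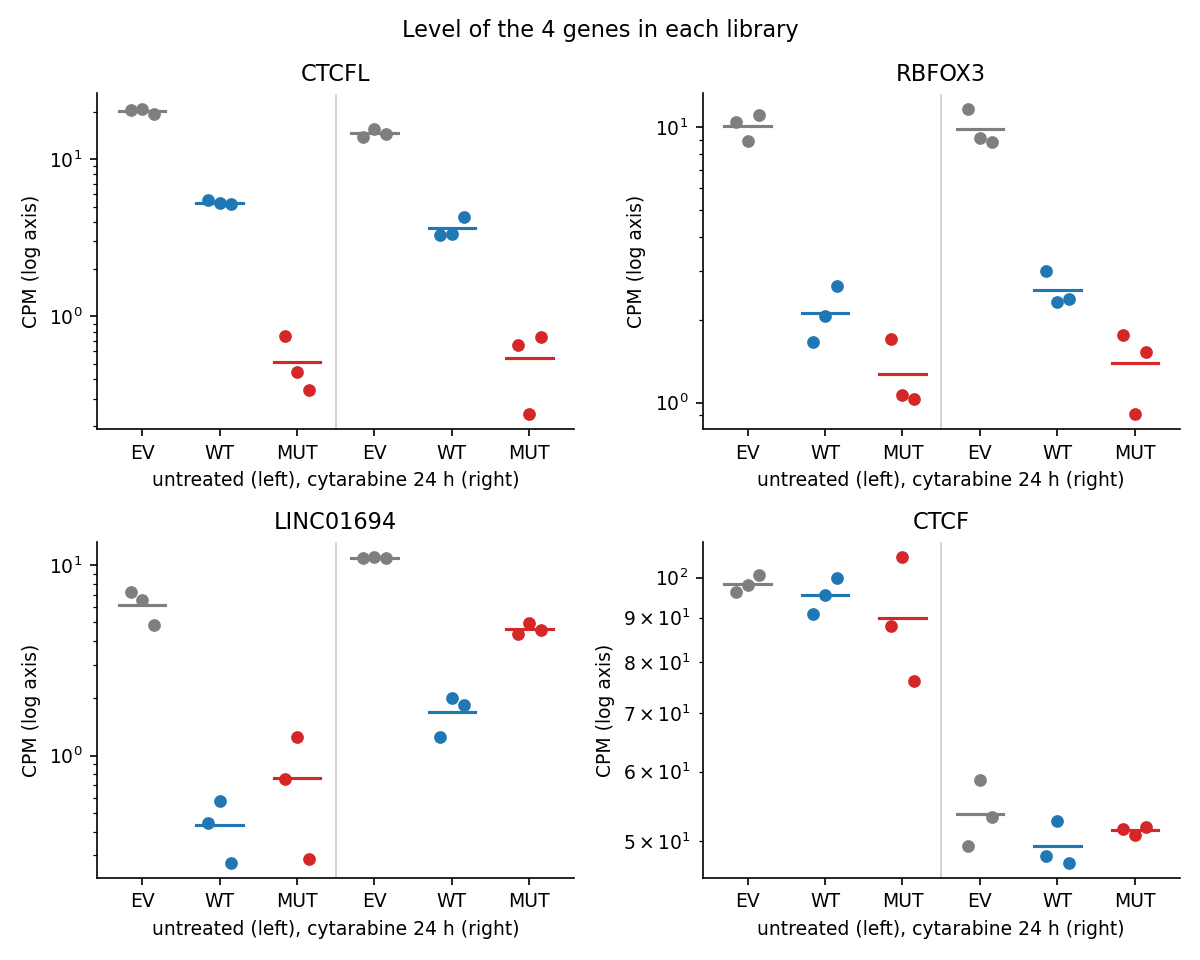
Level of the 4 genes in each library, in CPM on log axes that differ between panels; points are libraries, horizontal lines are means of 3, and the EV, WT and MUT lines are shown untreated on the left and after cytarabine on the right. CTCFL separates the 3 lines without overlap on both sides, whereas CTCF separates the treatments and not the lines.

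Within a line, cytarabine changed CTCFL little compared with the differences between lines. In the WT line, the level went from 5.30 ± 0.170 to 3.65 ± 0.567 CPM (SD, n = 3), which on the log2 scale was -0.54 (SE 0.186, adjusted p 0.0219 by edgeR). Cytarabine lowered 22.7% and raised 26.3% of all tested genes in that line. This call was lost when treated WT replicate 1 (adjusted p 0.0893), treated WT replicate 2 (0.0746) or untreated WT replicate 1 (0.0626) was left out. The descriptive values in the lines that chose the gene were -0.47 in EV and 0.08 in MUT, the latter between 28 and 37 counts summed over 3 libraries and -0.17 without untreated MUT replicate 3.

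The ratio of CTCFL to CTCF within a library does not depend on how libraries are scaled. Per length of annotated exons (8.93 kb for CTCFL and 10.1 kb for CTCF), untreated EV cells held 23.4 ± 1.29 CTCFL for every 100 CTCF (SD, n = 3). Untreated WT cells held 6.30 ± 0.502 and untreated MUT cells 0.649 ± 0.275, from 0.966, 0.472 and, in replicate 3, 0.510. After cytarabine the ratios were 30.9 ± 0.934 in EV, 8.42 ± 1.66 in WT and 1.20 ± 0.581 in MUT. The treated ratios were 31.9, 30.1 and 30.7 in EV, 7.76, 7.20 and 10.3 in WT and 1.45, 0.534 and 1.62 in MUT, with no overlap between lines. CTCF was thus the more abundant of both paralogs per length in every library, EV included. No test was run on this ratio, whose numerator chose the gene in untreated cells.

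**Figure D2:**
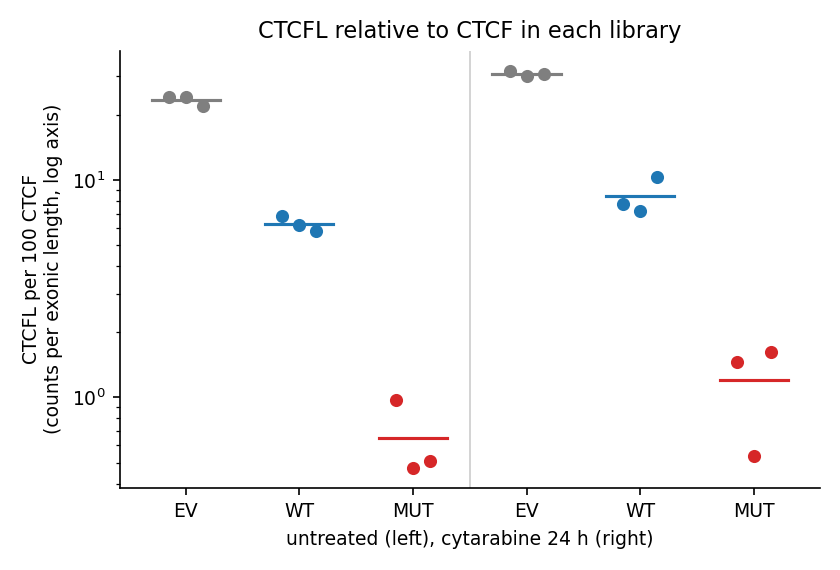
CTCFL per 100 CTCF in each library, from counts divided by annotated exonic length, on a log axis; points are libraries and lines are means of 3. EV libraries lie between 21.9 and 31.9, WT libraries between 5.85 and 10.3, and MUT libraries between 0.472 and 1.62.

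RBFOX3 was also highest in EV cells, and the WT and MUT lines lay closer to each other than for CTCFL. Untreated EV libraries had 10.4, 8.88 and 11.1 CPM, untreated WT libraries 1.67, 2.06 and 2.64 CPM, and untreated MUT libraries 1.71, 1.07 and 1.03 CPM. EV stood above both other lines without overlap, while the WT and MUT ranges overlapped. As a description, the log2 fold change was -2.97 (7.85-fold lower) for MUT against EV, -2.25 between WT and EV, and -0.72 between MUT and WT. Without untreated MUT replicate 3 the first and last were -2.82 and -0.56.

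After cytarabine, RBFOX3 was at 11.6, 9.11 and 8.85 CPM in EV, at 3.02, 2.32 and 2.37 CPM in WT and at 1.76, 0.910 and 1.53 CPM in MUT. No 2 lines overlapped. RBFOX3 was 7-fold lower in MUT than in EV (log2 fold change -2.81, SE 0.233, adjusted p 3.2e-07 by edgeR) and 3.83-fold lower in WT than in EV (-1.94, SE 0.220, adjusted p 5.4e-06). The difference between MUT and WT was smaller, at -0.87 (SE 0.248, adjusted p 0.0176). It missed the threshold when treated MUT replicate 2 (-0.65, adjusted p 0.0883) or treated WT replicate 1 (-0.74, adjusted p 0.0852) was left out. Cytarabine in the WT line gave 0.28 (SE 0.241, adjusted p 0.348 by edgeR) with a 95% interval from -0.22 to 0.79. A rise of up to 0.79 or a fall of up to 0.22 was thus not resolved. The descriptive values for cytarabine were -0.04 in EV and 0.13 in MUT, or -0.03 in MUT without untreated MUT replicate 3.

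The 2 paralogs of RBFOX3 did not share its pattern between the lines. RBFOX2, the family member made in many tissues, had group means between 114.9 and 133.4 CPM and was called in none of the 4 comparisons of WT or MUT with EV. Its treated MUT-EV difference was 0.15 (95% interval -0.04 to 0.33, adjusted p 0.302). RBFOX1, made in brain and muscle, stood at 0.471 ± 0.204 CPM in untreated EV cells and at 2.5 ± 0.286 CPM in treated EV cells (SD, n = 3). RBFOX1 rose with cytarabine by a log2 fold change of 2.39 in EV (adjusted p 8.83e-05), 2.11 in WT (1.56e-04) and 1.59 in MUT (0.00181), where 26.1%, 26.3% and 30.4% of all genes were called higher. Its treated MUT-EV difference of -0.25 (95% interval -0.96 to 0.47) was not called.

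LINC01694 differed from CTCFL and RBFOX3 both in the order of the lines and in its response to cytarabine. Untreated EV libraries had 7.19, 6.54 and 4.86 CPM, untreated WT libraries 0.441, 0.582 and 0.275 CPM, and untreated MUT libraries 0.752, 1.26 and 0.286 CPM. The WT values rest on 9, 11 and 5 counts and the MUT values on 15, 20 and 5, and these 2 lines overlapped. As a description, the log2 fold change was -3.03 (8.16-fold lower) for MUT against EV, -3.82 between WT and EV, and 0.79 between MUT and WT. Without untreated MUT replicate 3, the lowest library of its group, these MUT values were -2.62 and 1.20.

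After cytarabine, LINC01694 was at 10.9, 11.0 and 10.9 CPM in EV, at 1.25, 2.00 and 1.84 CPM in WT and at 4.35, 4.98 and 4.58 CPM in MUT. The order was EV above MUT above WT, without overlap. LINC01694 was 2.36-fold lower in MUT than in EV (log2 fold change -1.24, SE 0.236, adjusted p 0.00159 by edgeR) and 6.46-fold lower in WT than in EV (-2.69, SE 0.262, adjusted p 7.5e-07). Against WT it was 2.74-fold higher in MUT (1.45, SE 0.266, adjusted p 6.7e-04). LINC01694 averaged a log2 CPM of 1.31 over all 18 libraries but under 1 over the untreated ones. It passed the abundance limit through its treated values, so these tests and that of cytarabine in WT are not independent of the choice.

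Cytarabine raised LINC01694 in the WT line from 0.433 ± 0.154 to 1.70 ± 0.393 CPM (SD, n = 3). The log2 fold change was 1.94 (SE 0.359, adjusted p 1.7e-04 by edgeR), a 3.84-fold increase with no overlap between treated and untreated libraries. In the lines that chose the gene, the descriptive values were 0.82 in EV and 2.61 in MUT, or 2.20 in MUT without untreated MUT replicate 3. The level in treated MUT cells, 4.64 ± 0.319 CPM, came near the 6.20 ± 1.20 CPM of untreated EV cells. Among the 3 chosen genes, LINC01694 was thus higher after cytarabine in each line, CTCFL was lower in EV and WT, and the RBFOX3 libraries of both treatments overlapped in each line. Whether the drug acted differently on LINC01694 between lines was not tested, since those contrasts contain the untreated values that chose it.

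**Figure D3:**
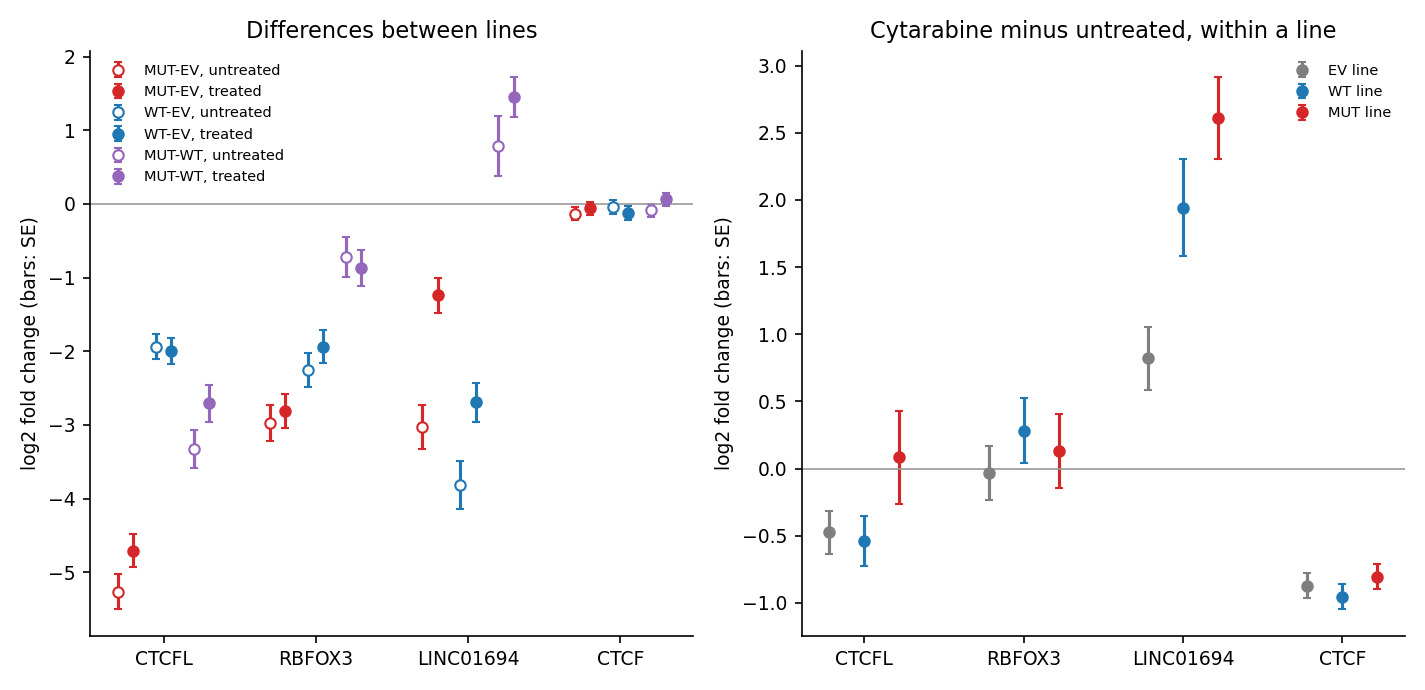
Log2 fold changes of the 4 genes with standard errors, between lines on the left (open symbols untreated, filled symbols after cytarabine) and for cytarabine against untreated within each line on the right. The open symbols of CTCFL, RBFOX3 and LINC01694, and their EV and MUT symbols on the right, contain the values that chose these genes. CTCF lies within 0.13 of 0 in all 6 line comparisons and between -0.80 and -0.95 for cytarabine.

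CTCF did not follow its paralog between the lines and fell with cytarabine in each of them. Untreated levels were 96.2, 98.1 and 100.7 CPM in EV, 90.9, 95.5 and 100 CPM in WT and 88.1, 105.5 and 76.1 CPM in MUT, and the lines overlapped. Treated levels were 49.3, 58.7 and 53.2 CPM in EV, 48.1, 52.7 and 47.2 CPM in WT and 51.6, 50.8 and 51.9 CPM in MUT. All 9 treated libraries lay below all 9 untreated ones. Cytarabine gave a log2 fold change of -0.87 in EV (1.83-fold lower, SE 0.0926, adjusted p 2.9e-07 by edgeR), -0.95 in WT (1.94-fold, adjusted p 9.2e-08) and -0.80 in MUT (1.75-fold, adjusted p 5.2e-07), the last -0.94 without untreated MUT replicate 3. The share of all genes called lower with cytarabine was 22.9% in EV, 22.7% in WT and 25.9% in MUT, and the median log2 fold change of all genes was 0.05, 0.03 and 0.05.

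None of the 6 line comparisons of CTCF was called. Untreated, the log2 fold change was -0.13 for MUT against EV (95% interval -0.32 to 0.06, adjusted p 0.345), -0.04 for WT against EV (-0.23 to 0.15) and -0.09 for MUT against WT (-0.28 to 0.10). After cytarabine it was -0.06 for MUT against EV (-0.26 to 0.13, adjusted p 0.731), -0.12 for WT against EV (-0.32 to 0.07) and 0.06 for MUT against WT (-0.13 to 0.26). These intervals bound any difference in CTCF at well under the differences seen in CTCFL. Leaving out untreated MUT replicate 2, the highest of its group, brought untreated MUT against EV to -0.23 with an adjusted p of 0.033, and without untreated MUT replicate 3 it was -0.002, with 0.05 for untreated MUT against WT. The effect of cytarabine on CTCF differed between lines by 0.07 for MUT minus EV (adjusted p 0.842), 0.15 for MUT minus WT (0.635) and -0.08 for WT minus EV (0.906), none of them called. Without untreated MUT replicate 3 the first 2 were -0.07 and 0.01. Over all genes, 0.214%, 1.00% and 0.285% were called in these 3 comparisons of effects.

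Per exonic length, the order of the 4 genes changed with the line. In untreated EV cells CTCF stood at 9.73 CPM per kb, CTCFL at 2.27, RBFOX3 at 1.00 and LINC01694 at 0.848. In untreated MUT cells, CTCF was at 8.90 CPM per kb, RBFOX3 at 0.125 ± 0.0376, LINC01694 at 0.105 ± 0.0666 and CTCFL at 0.0573 ± 0.0240 (SD, n = 3). LINC01694 overlapped both other low genes there, while every RBFOX3 library lay above every CTCFL library. CTCFL was thus the highest of the 3 chosen genes in EV cells and the lowest by mean in MUT cells.

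The genes just outside the choice were GALNT15 and DDR2. With CTCFL, LINC01694 and RBFOX3 at ranks 1, 2 and 3 of 1577 eligible genes, GALNT15, a glycosyltransferase, was at rank 4 with a log2 fold change of -2.80 (1.35 against 9.38 CPM). DDR2, a collagen receptor, was at rank 5 with -2.79 (4.08 against 28.3 CPM). RBFOX3, the last gene inside, had -2.97 (1.27 against 10.1 CPM). Without the abundance limit and the condition of no overlap, CTCFL ranked 6, LINC01694 38 and RBFOX3 42 of the 1831 genes called lower.

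Cohesin, the complex that CTCF holds in place on DNA, was examined through 14 genes for its subunits, loaders and regulators, all of which were tested. In treated MUT against EV, 3 were called higher and 1 lower, beside 6.85% and 7.13% of all genes, with a median of 0.08 beside -0.01 over all genes. With 1 library left out, 1 to 4 were higher and 0 to 1 lower. STAG1, PDS5B and CDCA5 rose by 0.29, 0.33 and 0.25 (adjusted p 0.0178, 0.0317 and 0.00584), and WAPL, which releases cohesin from chromatin, fell by 0.30 (adjusted p 0.0233). The ring subunits RAD21, SMC1A and SMC3 differed by 0.05, -0.01 and -0.06, and STAG2 by 0.24 (adjusted p 0.105), none called. In treated WT against EV, 2 were called higher and 2 lower, beside 7.41% and 9.12% of all genes. The lower 2 were RAD21 at -0.23 and SMC3 at -0.28 (adjusted p 0.0226 and 0.0189), and 0 to 2 were lower with 1 library left out.

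With cytarabine, 10 of the 14 cohesin genes fell in EV, 9 in WT and 6 in MUT, beside 22.9%, 22.7% and 25.9% of all genes. In each line 1 rose, beside 26.1%, 26.3% and 30.4% of all genes. The list medians were -0.32, -0.25 and -0.15. RAD21 went from 371.7 to 287.1 CPM in EV (log2 fold change -0.37), from 345.5 to 244.1 in WT (-0.50) and from 362.2 to 297.0 in MUT (-0.29). Depending on the scaling of libraries, 8 to 10, 7 to 10 and 5 to 7 genes fell. Whether these counts differ between lines was not tested.

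Of 12 genes for proteins reported to bind CTCF, 1 was called higher and 1 lower in treated MUT against EV, near the 6.85% and 7.13% of all genes. MAZ, a zinc-finger factor, rose by 0.35 (adjusted p 0.0074), and YY1, a looping factor, fell by 0.22 (adjusted p 0.0255). Cytarabine lowered 9 of the 12 in each line, beside 22.9%, 22.7% and 25.9% of all genes in EV, WT and MUT, with medians of -0.46, -0.44 and -0.41. The gene ZBTB33 rose in MUT (0.31, adjusted p 0.00445) and was named after its value was seen. The 12 thus moved down with CTCF in most members, and under each of the 3 alternative scalings 9 or 10 fell in EV and 9 in WT and MUT.

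Genes linked to CTCFL in the literature, mostly cancer-testis genes, were called about as often as all genes in treated MUT against EV. Of 22 listed genes, 17 were in the table and 15 were tested. In treated MUT against EV, 1 rose, 1 fell and 13 were not called, with a median of -0.08; over all genes, 6.85% rose and 7.13% fell. With other scalings of the libraries 1 to 3 fell, and with only these 2 groups in the fit 3 fell. In untreated MUT against EV, 3 of the 15 rose and 1 fell, beside 9.88% and 10.0% of all genes. Cytarabine raised 6, 6 and 7 and lowered 7, 5 and 7 of them in EV, WT and MUT. Of all genes it raised 26.1%, 26.3% and 30.4% and lowered 22.9%, 22.7% and 25.9%. MAGEA1 was at 147.2 CPM in treated MUT and 157.8 in treated EV (log2 fold change -0.10, adjusted p 0.467), and MAGEA4 at 356.3 and 426.1 CPM (-0.26, adjusted p 0.0634). SPANXB1, a sperm protein gene, was at 44.9 ± 2.13 CPM in treated MUT and 79.7 ± 9.99 CPM in treated EV (SD, n = 3). This was a log2 fold change of -0.83 (adjusted p 4.89e-06 by edgeR), and in treated WT against EV it was -1.31 (adjusted p 7.73e-09). Whether CTCFL affects SPANXB1 was not tested. STK31, a germ-cell kinase gene, went the other way, at 12.3 ± 1.64 CPM in treated MUT and 4.17 ± 0.362 CPM in treated EV (1.56, adjusted p 3.73e-06). SPANX and MAGEA genes have near-identical copies, between which the counting may have split reads, so their values are uncertain. MAGEA1 and MAGEA4 were chosen for mention after their values were seen.

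Other germ-cell genes were mostly near or under detection. Of 32 listed, 20 were in the table and 11 tested, of which 2 fell and none rose in treated MUT against EV, beside 7.13% and 6.85% of all genes. With 1 library left out, 1 to 3 fell. DPPA2, an early embryonic factor, was at 0.623 ± 0.273 against 2.02 ± 0.576 CPM (log2 fold change -1.69, adjusted p 0.00703), and PRAME at 326.8 against 385.7 CPM (-0.24, adjusted p 0.0195). In untreated MUT against EV, 4 of the 11 fell and 0 rose, beside 10.0% and 9.88% of all genes. With 1 library left out 1 to 4 fell there, and with only these 2 groups in the fit 0 fell. Cytarabine raised 6, 3 and 5 of the 11 in EV, WT and MUT, beside 26.1%, 26.3% and 30.4% of all genes. It lowered 1, 0 and 1, beside 22.9%, 22.7% and 25.9% of all genes. The meiotic cohesin genes SMC1B and RAD21L1 reached at most 0.196 and 0.145 CPM in any library and were not tested; both are named for their relation to CTCF's partner complex and not by the rule for named genes.

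Splicing regulators and neuronal genes were listed as company for RBFOX3. Of 30 tested splicing regulators, 2 rose and 1 fell in treated MUT against EV, a share no higher than the 6.85% and 7.13% of all genes. These were PTBP3 by 0.33, ELAVL2 by 0.34 and NOVA2, a neuronal splicing factor, by -0.61 (adjusted p 0.00513, 0.0366 and 0.0202). More were called in treated WT against EV, where 6 rose and 4 fell, beside 7.41% and 9.12% of all genes. With 1 library left out, 3 to 5 rose and 2 to 3 fell there. In untreated MUT against EV, 3 rose and 6 fell, beside 9.88% and 10.0%. With only those 2 groups in the fit, 0 rose and 1 fell. Of 13 tested neuron markers, 2 fell and none rose in treated MUT against EV, beside 7.13% and 6.85% of all genes. In treated WT against EV, 4 fell and 0 rose, beside 9.12% and 7.41%, and 0 to 3 fell with 1 library left out. SYP, which encodes the synaptic vesicle protein synaptophysin, was at 5.95 ± 0.0633 CPM in treated MUT, 16.1 ± 0.231 in treated WT and 15.9 ± 0.561 in treated EV (SD, n = 3). Its MUT-EV log2 fold change was -1.42 (adjusted p 4.15e-07). SYN1, for another vesicle protein, fell by 1.87 in MUT and by 0.99 in WT (adjusted p 2.08e-04 and 0.0152). Cytarabine raised 8 of the 13 markers in each line, beside 26.1%, 26.3% and 30.4% of all genes. It lowered 1, 2 and 1 in EV, WT and MUT, beside 22.9%, 22.7% and 25.9% of all genes. The lowered markers were TUBB3 in each line (-0.42, -0.26 and -0.55) and NEFH in WT (-1.67), named after their values were seen. RBFOX3 itself was not called in WT. Summed neuron markers ranged from 211.6 to 249.1 CPM in untreated and from 293.2 to 357.0 CPM in treated libraries, and STMN2 and NEFM stayed at or under 0.247 CPM as group means.

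**Figure D4:**
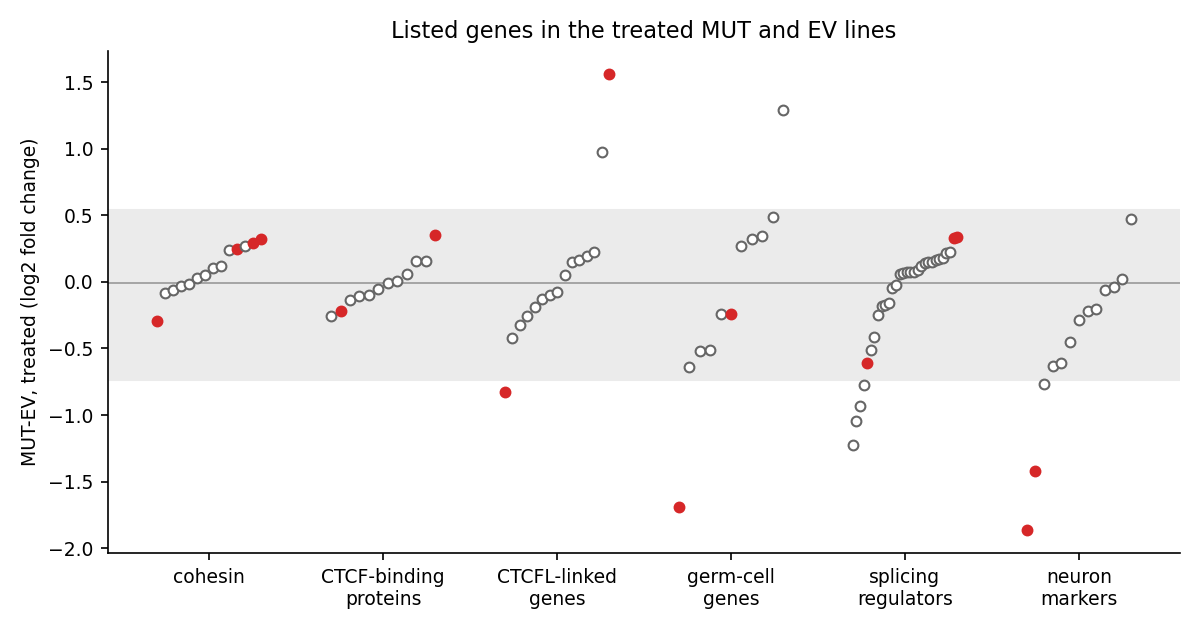
Log2 fold change of treated MUT against treated EV for the tested genes of each list, sorted within a list; filled symbols were called by edgeR (adjusted p under 0.05), the grey band spans the 5th to 95th percentile of all tested genes and the line is their median. Most listed genes lie inside the band, which runs from -0.74 to 0.54.

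Few genes next to CTCFL, RBFOX3 and LINC01694 were called, and none of those that fell did so by as much as they did. Distances are between gene midpoints. Within 1 Mb of CTCFL, 1 of 11 tested genes fell in treated MUT against EV and none rose, beside 7.13% and 6.85% of all genes, with a median of -0.12. The nearest, HMGB1P1 at -22.1 kb and PMEPA1 at 169.2 kb (negative towards lower coordinates), both had a log2 fold change of 0.03. HMGB1P1 is a processed pseudogene of an expressed gene, so its value is uncertain. The gene that fell was NKILA, at -0.37 (adjusted p 0.0382), which the table calls antisense. As the handling of strand is not given in the sources used here, its reads cannot be told apart from those of an overlapping partner.

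Near RBFOX3, none of 26 tested genes fell and 3 rose, with a median of 0.05, and the shares of all genes were again 7.13% and 6.85%. ENGASE and LINC02078, the nearest on each side at -221 and 407 kb, had 0.15 and 0.64 (adjusted p 0.598 and 0.553), and CBX2, a Polycomb subunit gene, rose most among those called (0.46, adjusted p 1.66e-04). Near LINC01694, 1 of 32 fell and 3 rose, beside the same shares, with a median of 0.12. SLC19A1, a folate carrier gene at -79.4 kb, had 0.32 (adjusted p 0.0572), AJ011932.1 at 376 kb had 0.32 (adjusted p 0.694), and ITGB2-AS1 rose most (1.25, adjusted p 0.0334), with the same limit on antisense genes.

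Around CTCF, many genes were lower while CTCF itself was not called. Of 66 tested genes within 1 Mb, 25 (37.9%) fell and 1 rose in treated MUT against EV, beside the 7.13% of all genes called lower. The median was -0.33, and 61 of the 66 had a negative log2 fold change. RIPOR1 and CARMIL2, the nearest on each side at -68.2 and 50.5 kb, fell by 0.30 and 0.53 (adjusted p 0.0176 and 0.00783), and TPPP3 fell most, by 2.5 (adjusted p 0.00193; 0.253 against 1.46 CPM). Without cytarabine, 25 of these 66 genes were lower, beside 10.0% of all genes, and 27 without untreated MUT replicate 3. Within 3 Mb the share was as high, at 44 of 109 (40.4%) treated and 45 of 109 (41.3%) untreated, so it was not limited to the nearest genes. In WT against EV, 15 (22.7%) were lower in treated and 15 in untreated cells, beside 9.12% and 7.36%. Neighbouring genes are not independent of each other, and no test of the group was made. The number that fell in treated MUT was 15 without treated MUT replicate 1 or 2 and 17 to 20 without any other library of the 2 groups, as the share of all genes called lower dropped to between 4.22% and 6.26%. In treated WT it was 6 without treated WT replicate 2, and 7 without treated WT replicate 3 or treated EV replicate 3. In untreated WT, leaving out 1 library left 8 to 10. When only the untreated groups compared entered the fit, 12 of 58 tested neighbours were lower in MUT and 28 of 58 in WT, where 3.24% and 16.5% of all genes were called lower. The medians moved only between -0.32 and -0.38 for treated MUT.

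**Figure D5:**
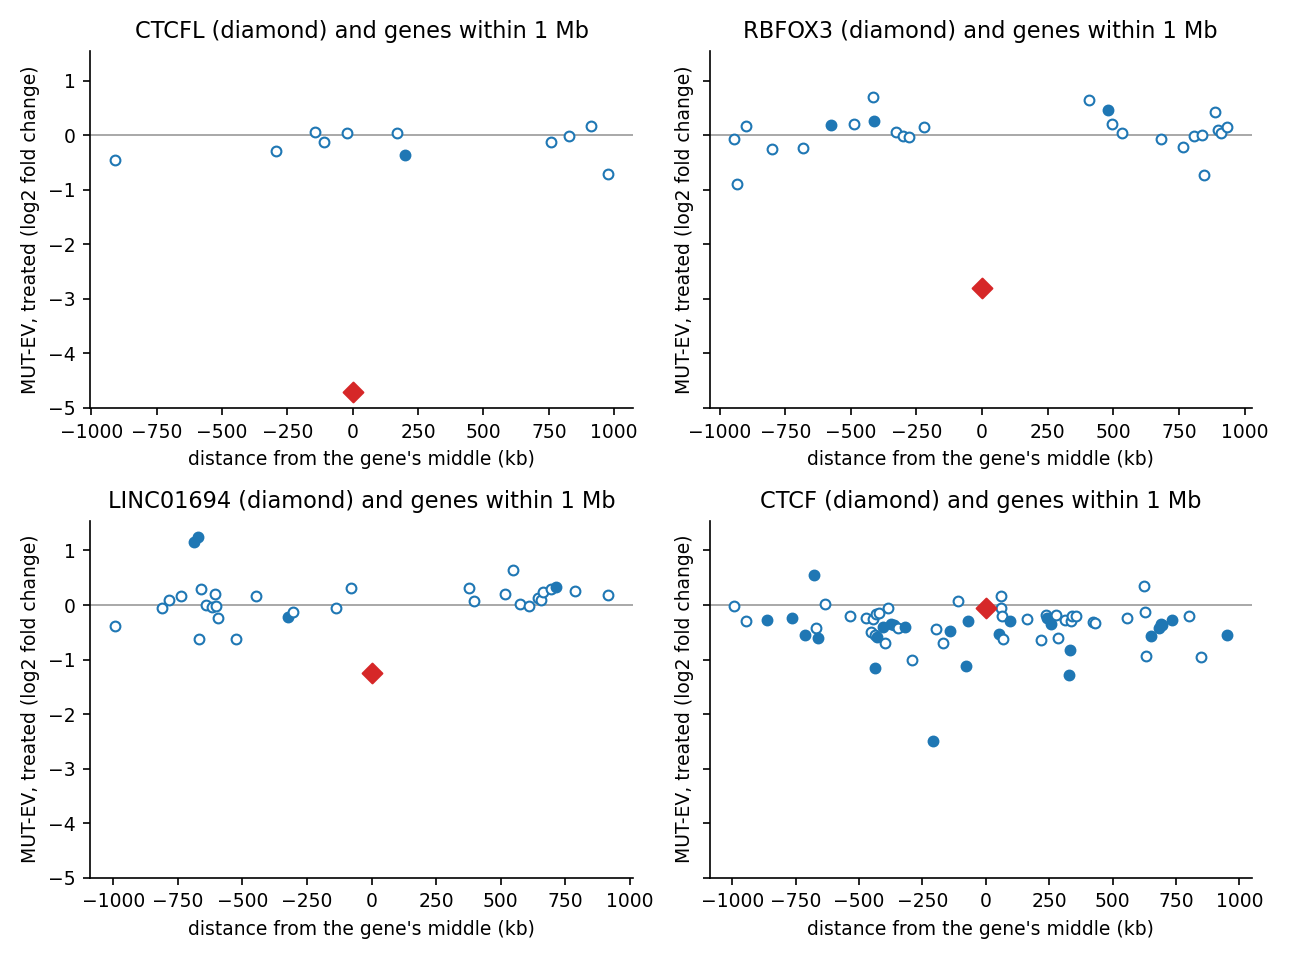
Log2 fold change of treated MUT against treated EV for tested genes within 1 Mb of each of the 4 genes, by distance between midpoints in kb; circles are neighbours (filled: called by edgeR, adjusted p under 0.05) and diamonds the named gene. CTCFL, RBFOX3 and LINC01694 lie far below their neighbours, whereas CTCF lies at -0.06 among 66 neighbours with a median of -0.33.

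The genes whose levels across the 18 libraries were most like those of the 4 genes were ranked by Pearson's r of log2 CPM over 18225 other genes. The 18 points share cell lines and treatments, so r describes the pattern of the 6 groups. For CTCFL the closest were CHST15 (r = 0.952), CREB3L1 (0.949), TBC1D23 (0.949), CALD1 (0.948) and BET1L (0.947). CHST15, which adds sulfate to chondroitin, showed the same order, at 3.47 CPM in untreated EV, 1.37 in WT and 0.0590 in MUT, the last from 3 counts. CALD1, for the actin-binding protein caldesmon, showed it with a far smaller span, at 368.0, 343.3 and 264.3 CPM. With a smaller prior count in the logarithm (0.5 in place of 2), 3 of the 5 kept their place and CHST15 and CREB3L1 did not.

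For RBFOX3 the closest genes were COL8A1 (r = 0.966), ZNF431 (0.942) and FAM19A5 (0.936). COL8A1, a collagen gene, was at 21.3 CPM in untreated EV, 8.20 in WT and 5.43 in MUT. For LINC01694 they were KCTD7 (0.954), PLEKHA7 (0.953) and DAAM2 (0.952). PLEKHA7, for an adherens junction protein, was at 18.9, 5.53 and 8.75 CPM in untreated EV, WT and MUT and at 34.1, 12.6 and 23.2 CPM after cytarabine, the order of LINC01694. For CTCF they were DDX3X (0.992), THRAP3 (0.988) and ETS1 (0.986), which were each lower with cytarabine in every line, as ETS1 at 234.9 and 120.8 CPM in EV. Among the 3 chosen genes, r was 0.913 between CTCFL and RBFOX3, 0.663 between RBFOX3 and LINC01694, and 0.423 between CTCFL and LINC01694. These 3 were chosen for the same untreated MUT-EV difference, and those libraries enter r, so positive values among them were partly set by the choice. With CTCF, r was 0.171 for CTCFL, 0.046 for RBFOX3 and -0.407 for LINC01694.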

How the data were processed

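Total RNA of 18 cultures was sequenced, 3 in each of 6 groups, which the sample titles name with their replicate numbers. A deposited table gives estimated counts for each gene symbol and library, not normalized by the authors, and 70.4% of them are whole. They also deposited a normalized signal for 19591 genes, which is the estimated count multiplied by 1 factor per library, plus 1 (largest relative deviation 7.33e-06). The submitters' processing notes name hg38, STAR 2.6.1d and CASAVA with no role; the counting tool and its handling of strand and multiply matching reads are not given in the sources used here. Of the symbols in the table, 24 had been turned into dates, and none of these is named. There were 0 columns of no sample.

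Estimated counts were rounded. The analysis used R 4.3.3 and edgeR 4.0.16: filterByExpr (18226 genes), TMM scaling and 1 quasi-likelihood model of all 18 libraries with 6 group coefficients (common biological coefficient of variation 0.104). P-values were adjusted by Benjamini and Hochberg over all tested genes, at a threshold of 0.05. Standard errors were derived from the log2 fold change and its F statistic, and intervals are 95% intervals of the fit. The scripts were tested on simulated data first. Replicates differed by more than sampling noise (chi-square per degree of freedom 2.46 to 48.2), so each was kept. The highest values, 22, 26 and 48.2, were those of untreated MUT, a group that entered the choice of the genes. The highest in another group was 15.8, in treated EV. Intervals and counts cover the sequenced reads, which carry no molecular identifiers.

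The genes and lists were chosen with earlier results of these data known. Untreated line contrasts, and cytarabine in EV and MUT, share values with that choice for CTCFL, RBFOX3 and LINC01694 and were not tested for them. The abundance limit also used the treated libraries, through which LINC01694 passed it. Other genes were named by rule: the most similar genes (5 for CTCFL, 3 for each other), the first 2 outside the choice, up to 3 called in each direction per list in treated MUT against EV, the paralogs RBFOX1 and RBFOX2, core cohesin subunits, and of the genes within 1 Mb the nearest on each side and the one called with the largest change. Exonic lengths and 50-base stretches came from GENCODE 44. Alternatives were other scalings (relative log expression, upper quartile, the authors' factors, the last added after seeing the data), DESeq2 1.42.0, other filters (none, or a mean of 50 counts), only the groups compared, a replicate block, and each library left out.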

Additional observations from a re-analysis of the deposited data

How the results depend on the processing

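Over 24 tested results of the 4 genes and 354 alternative values, 345 kept direction and side of the threshold. Of the rest, 5 lost and 1 gained the call and 3 changed sign, each with 1 library left out. With each library left out in turn, CTCFL under cytarabine in WT ran from -0.67 to -0.47, RBFOX3 in treated MUT against WT from -1.07 to -0.65, and CTCF from -0.23 to -0.002 in untreated MUT against EV, from -0.18 to 0.05 in untreated MUT against WT, from -0.12 to 0.006 in treated MUT against EV, and from -0.07 to 0.16 for the cytarabine effect in MUT minus EV. The sign changes of CTCF were 0.049 without untreated MUT replicate 3, 0.006 without treated EV replicate 2 and -0.07 without untreated MUT replicate 3, none called. The cause was not tested. Numbers of genes called moved more. With an absolute log2 fold change of at least 1, they were 476, 469 and 634 for untreated MUT-EV, WT-EV and MUT-WT, 285, 598 and 654 for the treated comparisons, and 2213, 2296 and 2975 for cytarabine in EV, WT and MUT. With only the groups compared, they were 935, 5101 and 1171 untreated (3632, 2125 and 3872 in the fit of all groups) and 6113 for treated MUT-WT (3616). With 1 library left out, they ran from 2253 to 4386 and 1385 to 1432 for untreated MUT-EV and WT-EV, and from 1539 to 2051, 1776 to 2477 and 2313 to 2866 for treated MUT-EV, WT-EV and MUT-WT. Genes whose cytarabine effect differed between lines numbered 39, 183 and 52 with edgeR and 554, 803 and 138 with DESeq2 for MUT minus EV, MUT minus WT and WT minus EV. In untreated MUT against WT, 55.1% of calls were higher as reported and 65.4% with relative log expression factors. Upper-quartile factors put the median of all genes at 0.127 for cytarabine in EV, beside 0.051 as reported.

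The replicate numbers did not pair the samples: correlations of deviations between same-numbered libraries of different groups ran from -0.176 to 0.352, and 7 of 45 were over 0.1. With a replicate block, CTCFL in treated MUT against EV was -4.71 (adjusted p 1.24e-09 by edgeR), no call of the 4 genes changed, and the count for MUT minus EV went from 39 to 25. At 5 to 20 counts in untreated MUT libraries, levels of CTCFL and LINC01694 there are uncertain from counting alone.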
